A study of Homo sapiens with 5 samples.

Results

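The genes described here are 38 genes of the cell cycle, 17 that act in S phase and 21 that act in G2 and mitosis. They were chosen by name from textbook roles, but with earlier results of these data known. All 38 had reads in each of the 5 RNA sequencing libraries of the series, in which 19716 genes had a read in at least 1 library. The S list holds the MCM2 to MCM7 helicase subunits with CDC45 and GINS2, the loading and G1/S control genes CDC6, CDT1, CCNE1, CCNE2 and E2F1, and PCNA, RRM1, RRM2 and TYMS. The G2/M list holds the cyclins and mitotic kinases CCNA2, CCNB1, CCNB2, CDK1, PLK1, AURKA, AURKB, BUB1, BUB1B and TTK, the genes CDC20 and BIRC5, the motor and kinetochore genes CENPE, CENPF, KIF11, KIF20A and KIF23, and TPX2, NUSAP1, TOP2A and MKI67.

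A cell copies its DNA once per division because the MCM helicase is loaded on origins in G1 by CDC6 and CDT1 and is only started in S phase, when cyclin E and its kinase are active. The S genes are induced by E2F factors once the retinoblastoma protein releases them, whereas the G2/M genes are switched on later by the MuvB complex with B-MYB and FOXM1, often through an element called the CHR and through CCAAT boxes. In HEK293T cells, a human embryonic kidney line, the SV40 large T antigen binds the retinoblastoma protein and p53, so the E2F step is less restrained than in normal cells.

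In 4 groups the cells received 5 sgRNAs to the uPA promoter (the PLAU gene, urokinase plasminogen activator) and a construct of dCas9, a Cas9 without nuclease activity, with blue fluorescent protein (BFP). The constructs dCas9-BFP-DNMT1 and dCas9-BFP-DNMT3A, and likewise dCas9-BFP-DNMT3B, end in the catalytic domain of the named DNA methyltransferase, and dCas9-BFP-EGFP ends in a fluorescent protein instead. The fifth group, the control, received pUC19 and hence neither dCas9 nor a guide. All cells were transfected with 1 ug of plasmid and collected after 48 h. By the labels, all groups were sorted for BFP, which pUC19 does not encode. Effects of dCas9, of the guides and of any difference in sorting cannot be told apart in the comparisons with pUC19. Each group had 1 library, so no difference has a replicate check, and every p-value from the exact test compares libraries and not conditions.

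Libraries held between 26.2 M (EGFP fusion) and 36.1 M (pUC19) reads assigned to genes, and the 38 genes took between 0.881% (DNMT1 fusion) and 1.083% (DNMT3A fusion) of them. PLAU had 2.48 TPM in pUC19 and between 0.03 and 0.18 TPM in the fusion libraries. The rows of DNMT1, DNMT3A and DNMT3B, which also count the fusion transcripts, took 3.53%, 3.19% and 5.98% of the reads in the libraries of the matching fusion. Of the HEK293T markers, VIM was at 437 to 599 TPM, PAX2 at 6.08 to 7.72 and LHX1 at 3.38 to 5.25, and NEFM was at 34.3 to 60.2 TPM in the fusion libraries and at 193 TPM in pUC19. The leukocyte, hepatocyte and endothelial markers PTPRC, ALB and PECAM1 stayed under 1 TPM in every library, and the fibroblast marker COL1A1 was at 3.87 to 7.97 TPM. TPM corrects a read count for the length of the gene, so genes can be compared within a library. Its sum is the same in every library, so a transcript that takes a large share lowers the values of all others there. Comparisons between libraries depend on this scaling, and some results are therefore also given with another scaling below.

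The promoter sequences of the members that the results turn on are shown first, since the lists differ in the elements they carry. The RefSeq promoter table gave windows of 300 bases, from 250 bases before to 50 after the start, for 31 of the 38 genes (14 S and 17 G2/M), and none for MCM4, MCM5, CCNE2, AURKA, TPX2, BIRC5 and TTK. Stretches of these windows were placed on GRCh37 by exact match. CCNE1 and MKI67 are given over the 250 bases before the start because they were the members that differed 2-fold from pUC19, and capitals mark any E2F octamer (TTTGGCGC, TTTGCCGC, TTTCGCGC or TTTCCCGC), CHR (TTTGAA) or CCAAT box, on either strand. The CCNE1 stretch lies at chr19:30302648-30302897 on the plus strand, and the MKI67 stretch at chr10:129924688-129924937 on the minus strand.
CCNE1: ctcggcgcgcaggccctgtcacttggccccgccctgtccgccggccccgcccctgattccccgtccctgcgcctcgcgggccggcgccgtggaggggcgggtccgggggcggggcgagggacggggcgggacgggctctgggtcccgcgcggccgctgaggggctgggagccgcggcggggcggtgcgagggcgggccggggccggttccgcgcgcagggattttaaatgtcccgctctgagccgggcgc
MKI67: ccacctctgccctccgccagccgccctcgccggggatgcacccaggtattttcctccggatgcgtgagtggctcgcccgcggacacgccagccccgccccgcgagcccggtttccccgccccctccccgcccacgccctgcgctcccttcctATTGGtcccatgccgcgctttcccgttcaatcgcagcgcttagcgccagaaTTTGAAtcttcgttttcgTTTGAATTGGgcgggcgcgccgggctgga

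None of these letters was found in the CCNE1 stretch, which says nothing about which factors bind there. The MKI67 stretch held 2 CHR matches, at 47 to 42 and 29 to 24 bases before the start, and 2 CCAAT boxes, the nearer of which shares a base with the second CHR match. For other members, 30 bases around 1 match of an E2F octamer or a CHR are shown, with that match alone in capitals. E2F1, CDT1, PCNA and CDC6 carry an E2F octamer, and they are shown because E2F1 and CDT1 had higher levels in all 4 fusion libraries than in pUC19 and because PCNA and CDC6 differed between the fusions. TOP2A, PLK1, BUB1B and CDC20 carry a CHR, and the TOP2A and CDC20 stretches also hold a CCAAT box, left in lower case. The positions are chr20:32274193-32274222 (minus) for E2F1, chr16:88870151-88870180 (plus) for CDT1, chr20:5107309-5107338 (minus) for PCNA, chr17:38444127-38444156 (plus) for CDC6, chr17:38574282-38574311 (minus) for TOP2A, chr16:23690169-23690198 (plus) for PLK1, chr15:40453235-40453264 (plus) for BUB1B and chr1:43824575-43824604 (plus) for CDC20.
E2F1: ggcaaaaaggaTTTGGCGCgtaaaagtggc
CDT1: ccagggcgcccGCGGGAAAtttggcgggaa
PCNA: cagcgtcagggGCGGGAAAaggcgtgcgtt
CDC6: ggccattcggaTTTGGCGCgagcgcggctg
TOP2A: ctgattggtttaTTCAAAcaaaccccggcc
PLK1: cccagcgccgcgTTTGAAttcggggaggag
BUB1B: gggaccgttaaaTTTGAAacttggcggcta
CDC20: cgacggttggatTTTGAAggagccaatagg

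Over the whole windows, 10 of the 14 S genes and 2 of the 17 G2/M genes had an E2F octamer, against 3.99% of the 27305 genes in the table. A CHR match was found in 11 of 17 G2/M genes and in 1 of 14 S genes, against 18.17% of all genes. A CCAAT box was common in both lists, in 15 of 17 G2/M genes and 10 of 14 S genes, against 39.72% of all genes. A CCAAT box and a CHR were both present in 10 of 17 G2/M genes, in 1 of 14 S genes and in 7.26% of all genes. CDC6 had its octamer 8 to 15 bases after the start, and the matches of E2F1, CDT1 and PCNA lay 13 to 59 bases before it. A match of letters is a description and does not show that a factor binds.

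The cells transcribed both lists strongly. In pUC19 the median level was 209 TPM over the S genes (12.6 to 537) and 139 TPM over the G2/M genes (29.6 to 345), and 37 of the 38 genes exceeded 19.8 TPM, the median of the 13982 genes at 1 TPM or more. MCM7, a subunit of the replicative helicase, was highest and CCNE2, the second cyclin E gene, lowest. Each member had at least 303 reads in every library. Summed over the 17 S genes, the level was 3431 TPM with the DNMT1 fusion, 4452 with DNMT3A, 4388 with DNMT3B, 3712 with EGFP and 3855 (3854.5) in pUC19. Summed over the 21 G2/M genes it was 2760 TPM with DNMT1, 3302 with DNMT3A, 3305 with DNMT3B, 3796 with EGFP and 3291 in pUC19. By TPM, the DNMT1 fusion library thus had the lowest sum of each list. The DNMT3A and DNMT3B libraries had the highest S sums, and the EGFP library had the highest G2/M sum. The sums were not taken with another scaling. The order of DNMT1 and EGFP in the S sum may depend on it. Their median S log2 fold change was -0.08 by TPM and 0.06 with the TMM scaling described below. The ratio of the S sum to the G2/M sum was 1.24, 1.35, 1.33, 0.978 and 1.17 in the order DNMT1, DNMT3A, DNMT3B, EGFP and pUC19.

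Differences between libraries were small for most members. The highest level among the 5 libraries was 1.49 times the lowest in the median member, and at least 2 times in 3 of 38 genes (7.89%), which were CCNE1 (3.05), MKI67 (2.48) and CCNE2 (2.14). Among the 8247 genes with a mean level at or above the lowest member's, the median was 1.5 and 14.2% reached 2. GINS2, a subunit of the GINS complex that works with the MCM helicase, varied least, with a ratio of 1.09.

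The first question was whether these genes had other levels under a fusion than in pUC19, since the study asked how specific the change of transcription was to the targeted gene and since uPA acts in proliferation. The study also reported inhibited growth of cells with dCas9 methyltransferases and uPA guides. RNA levels do not measure growth, and a link between the RNA levels and growth was not tested. Calls required at least 2-fold in TPM + 0.1 and, in a two-sided exact conditional binomial test, an adjusted p not above 0.001, which are the study's own limits. Of the 38 members, 1 was called with the DNMT1 fusion (CCNE1), 2 with DNMT3A (CCNE1 and MKI67), 1 with DNMT3B (MKI67) and 2 with EGFP (CCNE1 and MKI67). CCNE1 fell in each case and MKI67 rose. Among all genes, 1.53% were called higher and 3.63% lower with the DNMT1 fusion, 4.4% and 4.96% with DNMT3A, 4.47% and 4.29% with DNMT3B, and 2.6% and 3.1% with EGFP. The members' counts, 1 or 2 of 38, thus did not exceed the background. The adjusted p alone passed 0.001 for 29 to 33 members and for 40.7% to 46.9% of all genes, so the fold decided the calls. The exact test scales by total reads and the fold by TPM, so they can disagree where differences are small. With DNMT3B against pUC19, MCM3 had a fold of 1.012 and an adjusted p of 3.2e-05 in that test. NUSAP1 had a fold of 1.072 and an adjusted p of 0.78. The 4 comparisons share the pUC19 library.

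CCNE1 encodes cyclin E1, which with CDK2 drives entry into S phase. In GRCh37 it spans 30302898 to 30315219 of chromosome 19, plus strand (NCBI gene 898). Its level was 52.3 TPM (1684 reads) in pUC19, 23.4 TPM (586 reads) with the DNMT1 fusion, 24.0 TPM (618 reads) with DNMT3A, 28.1 TPM (640 reads) with DNMT3B and 17.1 TPM (391 reads) with EGFP. The pUC19 library was higher than each of the other 4, and the EGFP library, without a methyltransferase, was the lowest. The log2 fold changes against pUC19 were -1.15, -1.12, -0.89 and -1.60 in the order DNMT1, DNMT3A, DNMT3B and EGFP. The exact test gave adjusted p-values of 3.72e-66, 6.85e-70, 6.82e-52 and 1.65e-110, and the DNMT3B difference was not called because its fold of 0.538 (95% exact interval 0.491 to 0.590) did not reach 2-fold. These intervals cover counting error only. When a coefficient of variation of 0.2 between libraries was assumed instead, the adjusted p was 0.195, 0.0953, 0.197 and 0.0147, and no member was called against pUC19 in any of the 4 fusions.

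MKI67 encodes Ki-67, which coats mitotic chromosomes and is used as a marker of cycling cells. In GRCh37 it spans 129894923 to 129924687 of chromosome 10, minus strand (NCBI gene 4288). It had 107 TPM (21305 reads) in pUC19, 138 TPM (21411 reads) with the DNMT1 fusion, 235 TPM (37434 reads) with DNMT3A, 265 TPM (37288 reads) with DNMT3B and 218 TPM (30760 reads) with EGFP. All 4 fusion libraries were above pUC19, with the DNMT1 library nearest to it. The log2 fold change was 0.37 with DNMT1, and the values of 1.14 (DNMT3A), 1.31 (DNMT3B) and 1.03 (EGFP) were called, with adjusted p-values below 1e-300 in the exact test. The fold for EGFP was 2.04 (95% exact interval 2.0 to 2.08), at the edge of the threshold. Its log2 value was 0.87 after the trend of the log ratio with GC content and gene length was removed, which ended the call.

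**Figure D1:**
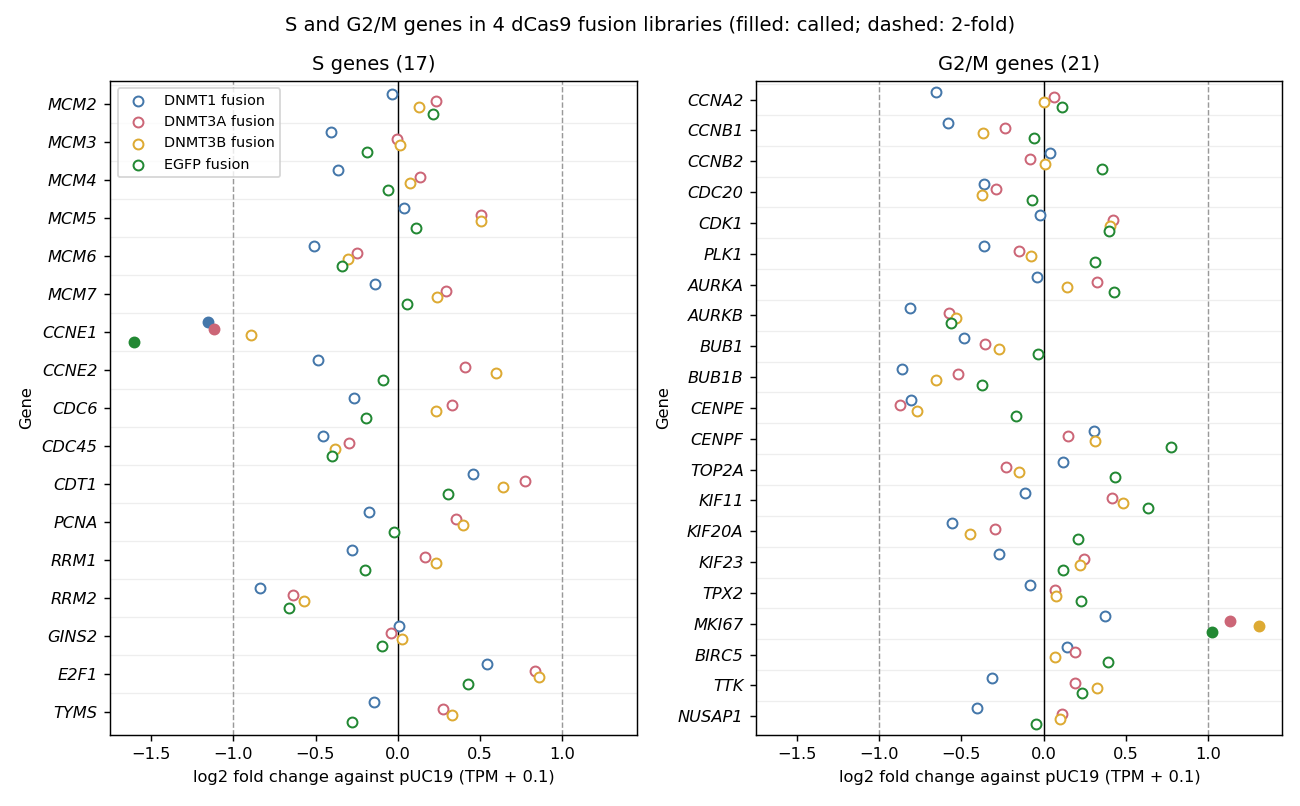
Log2 fold change of TPM + 0.1 against pUC19 (x axis) for the 17 S genes (left) and the 21 G2/M genes (right), with 1 point for each fusion library and filled points for calls. Only CCNE1, to the left, and MKI67, to the right, have filled points, and the DNMT1 points (blue) lie left of the other fusions for most genes.

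The other members stayed within 2-fold of pUC19 in all 4 fusion libraries. With a limit of 1.5-fold at the same adjusted p, the fusions DNMT1 and DNMT3A gave 6 members each, DNMT3B gave 7 and EGFP gave 5. Among all genes this rule called 15.1%, 22.5%, 21.8% and 16.2% in the same order, so the members' counts of 38 were again near the background. The genes added in this way were RRM2, CCNA2, AURKB, BUB1B and CENPE (lower) for DNMT1, CDT1 and E2F1 (higher) with RRM2 and CENPE (lower) for DNMT3A, CCNE2, CDT1 and E2F1 (higher) with CCNE1, BUB1B and CENPE (lower) for DNMT3B, and CENPF and KIF11 (higher) with RRM2 (lower) for EGFP.

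By role, the helicase genes changed little. MCM7 had 537 TPM in pUC19 and 487, 659, 635 and 558 TPM with the DNMT1, DNMT3A, DNMT3B and EGFP fusions. MCM5, the helicase gene with the largest difference, had 349 TPM in pUC19 and 359, 497, 498 and 378 TPM in that order, so the DNMT3A and DNMT3B libraries were above the other 3. The remaining helicase genes had log2 fold changes against pUC19 between -0.51 and 0.23.

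Among the loading and G1/S control genes, E2F1, the activator that gives the E2F targets their name, had 77.9 TPM in pUC19 and 114, 139, 142 and 105 TPM with DNMT1, DNMT3A, DNMT3B and EGFP. CDT1, which loads the MCM helicase, had 209 TPM in pUC19 and 288, 358, 327 and 259 TPM. Both genes were above pUC19 in every fusion library, by log2 0.30 to 0.86, whereas CCNE1 was below it. The level of GMNN, whose product geminin inhibits CDT1, was 228 TPM in pUC19 and 172 to 209 TPM in the fusion libraries, so the ratio of CDT1 to GMNN was 0.918 in pUC19 and 1.24 (EGFP) to 1.95 (DNMT3A) with the fusions. The ratio of CCNE1 to CCNE2 was 4.16 in pUC19 and 1.44 to 2.62 with the fusions.

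Among the genes of the clamp and nucleotide supply, RRM2, the regulated subunit of ribonucleotide reductase, had 136 TPM in pUC19 and 76.3, 87.7, 91.8 and 86.1 TPM with DNMT1, DNMT3A, DNMT3B and EGFP. Its 4 fusion libraries lay close together and below pUC19. PCNA, the sliding clamp, RRM1, the large reductase subunit, and TYMS, which makes dTMP, were below pUC19 with DNMT1 and EGFP and above it with DNMT3A and DNMT3B, by log2 values between -0.28 and 0.40.

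In the G2/M list, PLK1, a kinase of mitotic entry and spindle assembly, had 345 TPM in pUC19 and 268, 311, 328 and 429 TPM with DNMT1, DNMT3A, DNMT3B and EGFP, so pUC19 lay within the range of the fusions. BUB1B, which encodes the checkpoint protein BUBR1, had 75.4 TPM in pUC19 and 41.5, 52.5, 47.9 and 58.0 TPM, all lower. CDC20, the activator of the anaphase-promoting complex, had 285 TPM in pUC19 and 222, 233, 220 and 271 TPM, and BIRC5, the passenger protein survivin, had 212 TPM in pUC19 and 234, 242, 222 and 278 TPM. Thus BUB1B and CDC20 were lower and BIRC5 was higher in all 4 fusion libraries than in pUC19, by less than 2-fold.

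Among motors and kinetochore genes, KIF11, the spindle motor Eg5, had 103 TPM in pUC19 and 95.1, 137, 144 and 160 (159.5) TPM with DNMT1, DNMT3A, DNMT3B and EGFP. CENPE, a kinetochore motor, had 29.6 TPM in pUC19 and 16.9, 16.1, 17.3 and 26.4 TPM, and the EGFP library alone was near pUC19. TPX2, a spindle assembly factor, had 247 TPM in pUC19 and 234, 260 (259.7), 261 and 290 (289.6) TPM. The directions thus differed between genes that act at the same structures: CENPF, another kinetochore protein, was above pUC19 in all 4 fusions (log2 0.15 to 0.77) and CENPE below it (log2 -0.88 to -0.17).

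Counted over libraries, 6 of the 38 genes were above pUC19 in all 4 fusions (MCM5, CDT1, E2F1, CENPF, MKI67 and BIRC5) and 10 were below it (MCM6, CCNE1, CDC45, RRM2, CCNB1, CDC20, AURKB, BUB1, BUB1B and CENPE). Among 13906 genes with a mean of at least 1 TPM, 23.7% were above and 32.7% below pUC19 in all 4 fusions, so neither count of members (15.8% and 26.3%) exceeded the background. With TMM scaling, which estimates the library scale from the bulk of genes, 11 (4 S and 7 G2/M) were above and the same 10 were below, beside 27.8% and 30.3% of the 13906 genes. The genes added were MCM2, CDK1, AURKA, KIF11 and TPX2, which lay below pUC19 with DNMT1 by TPM and above it with TMM. TMM moved the median log2 fold change of all genes by 0.12 for DNMT1 against pUC19 and by 0.13 for DNMT1 against EGFP, and by -0.11 and -0.10 for DNMT3A and DNMT3B against DNMT1. Other shifts were below 0.1.

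An edgeR quasi-likelihood fit of the 4 fusions against pUC19 called 0.737% of 16001 genes at an adjusted p under 0.05 (15 higher and 103 lower) and none of the 38 members. In that fit the spread comes from the 4 fusion libraries, which are different constructs, and the lone pUC19 library is assumed to vary like them. At an unadjusted p under 0.05 there were 7 of 38 members beside 18% of all genes, so their number was at the background. They were CCNE1 (log2 -1.12, adjusted p 0.0879), RRM2 (-0.62, 0.116), MKI67 (1.04, 0.138), AURKB (-0.57, 0.153), E2F1 (0.73, 0.153), BUB1B (-0.55, 0.2) and CDT1 (0.61, 0.204). DESeq2 called 3 members, CCNE1, RRM2 and MKI67, and 6.63% of all genes. Without the DNMT1 library edgeR called 1 member, MKI67 (log2 1.18), and 0.595% of all genes. The median log2 fold change of the fit was 0.10 over the S genes, 0.12 over the G2/M genes and 0.03 over all genes.

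**Figure D2:**
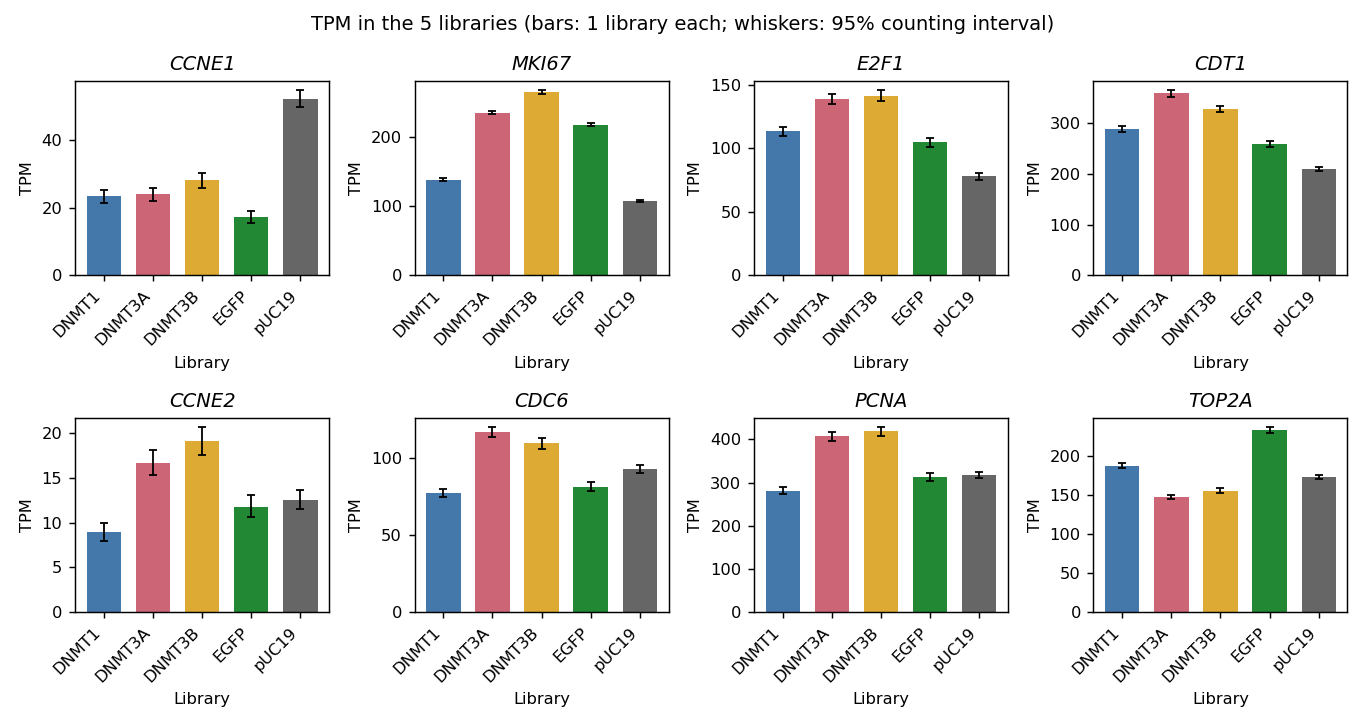
TPM (y axis, from 0) in the 5 libraries (x axis) for 8 members, with 1 bar per library and whiskers for the 95% counting interval of the reads. CCNE1 is highest in pUC19, MKI67, E2F1 and CDT1 are lowest in it, and in the lower row CCNE2, CDC6 and PCNA are highest and TOP2A lowest in the DNMT3A and DNMT3B libraries.

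The next question was whether the fusions differed from each other under the same guides, with EGFP as the fusion that has no methyltransferase. By the 2-fold rule, no member was called for DNMT1, DNMT3A or DNMT3B against EGFP, for DNMT3A against DNMT1 or for DNMT3A against DNMT3B, and 1 (CCNE2) was called for DNMT3B against DNMT1. Among all genes, 1.44%, 3.97% and 3.5% were called against EGFP for DNMT1, DNMT3A and DNMT3B, 3.59% and 3.54% for DNMT3A and DNMT3B against DNMT1, and 0.215% for DNMT3A against DNMT3B. The adjusted p alone was at most 0.001 for 27 to 32 members in the first 5 of these pairs and for 16 in the last, beside 27.2% to 37.2% and 14.3% of all genes.

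CCNE2, the cyclin E2 gene, had 8.94 TPM (303 reads) with the DNMT1 fusion, 16.7 TPM (583 reads) with DNMT3A, 19.1 TPM (589 reads) with DNMT3B, 11.8 TPM (365 reads) with EGFP and 12.6 TPM (549 reads) in pUC19. The DNMT3A and DNMT3B libraries were the highest, with pUC19 and EGFP between them and DNMT1. DNMT3B against DNMT1 gave a log2 fold change of 1.09 (fold 2.14, 95% exact interval 1.86 to 2.46, adjusted p 2.83e-22 in the exact test). The value was 0.96 with TMM scaling and 0.93 after removing the GC and length trend, both under the 2-fold limit, so the call was lost under both.

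The S genes lay higher with DNMT3A and DNMT3B than with DNMT1 and EGFP. In 15 of 17 S genes both of the former libraries were above both of the latter, the exceptions being MCM2 and GINS2, and no S gene showed the reverse. Among the 13906 genes, 34.9% showed this order and 23.3% the reverse. Of the 21 G2/M genes, 4 showed the order of the S genes (CDK1, KIF23, MKI67 and NUSAP1) and 2 the reverse (CCNB2 and TOP2A). With TMM scaling the S count was 13 of 17, without CCNE1 and CDC45, and the G2/M counts were 5 and 6, beside 31.7% and 27.7% of all genes. Genes of a list are regulated together and are not independent observations.

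Against the EGFP fusion, the median log2 fold change of the S genes was 0.36 with DNMT3A (17 of 17 above 0) and 0.34 with DNMT3B (16 of 17), beside -0.05 and -0.02 over all genes tested. The S genes have a median GC content of 51.6% and the G2/M genes of 42.6%, and after removing the trend with GC content and length the S medians were 0.17 (15 of 17 above 0) and 0.15 (14 of 17). Whether the remaining difference depends on other properties of the libraries was not tested. Against the DNMT1 fusion the S medians were 0.41 and 0.38, beside 0.08 and 0.10 over all genes, and 0.19 and 0.14 with the trend removed. The G2/M genes were also higher than with DNMT1, with medians of 0.26 and 0.21 (17 of 21 above 0 in each) and of 0.15 and 0.05 with the trend removed, so this difference was not limited to the S genes. Against pUC19 the S medians were -0.27, 0.23, 0.24 and -0.10 for the fusions DNMT1, DNMT3A, DNMT3B and EGFP, beside -0.15, -0.06, -0.05 and 0.00 (-0.0032) over all genes. With the trend removed these S medians were -0.04, 0.15, 0.08 and -0.13.

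Relative to EGFP, the G2/M genes followed another order. In 15 of 21 G2/M genes and in none of the 17 S genes, EGFP was the highest of the 4 fusion libraries, which held for 33.2% of the 13906 genes. These 15 were CCNA2, CCNB1, CCNB2, CDC20, PLK1, AURKA, BUB1, BUB1B, CENPE, CENPF, TOP2A, KIF11, KIF20A, TPX2 and BIRC5, and the same 15 were found with TMM scaling, beside 25.2% of all genes. Against EGFP the median log2 fold change of the G2/M genes was -0.46 for DNMT1 (0 of 21 above 0), -0.17 for DNMT3A (4 of 21) and -0.28 for DNMT3B (6 of 21), and -0.25, -0.13 (-0.125) and -0.22 after the GC and length trend was removed. Against pUC19 the G2/M median was -0.32 (DNMT1), 0.06 (DNMT3A), 0.01 (DNMT3B) and 0.23 (EGFP). Over all genes the medians were -0.15, -0.06, -0.05 and 0.00 (-0.0032) in that order. After the GC and length trend was removed the G2/M medians were -0.02, 0.06, 0.05 and 0.19. With DNMT1, 10 of 21 genes then lay above 0, so little of the lower DNMT1 median remained.

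DNMT1 was the lowest of the 4 fusion libraries in 27 of 38 members (12 S and 15 G2/M), which held for 41.9% of the 13906 genes. With TMM scaling, which raises the DNMT1 values relative to the others, the numbers were 8 of 17 and 14 of 21, beside 28% of all genes. The median log2 fold change of S genes for DNMT1 against EGFP was -0.08, and it turned to 0.06 with TMM and to 0.05 after the GC and length trend was removed, so no direction was given to it. The DNMT3A and DNMT3B libraries were close to each other, with log2 fold changes of all 38 members between -0.23 and 0.18.

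**Figure D3:**
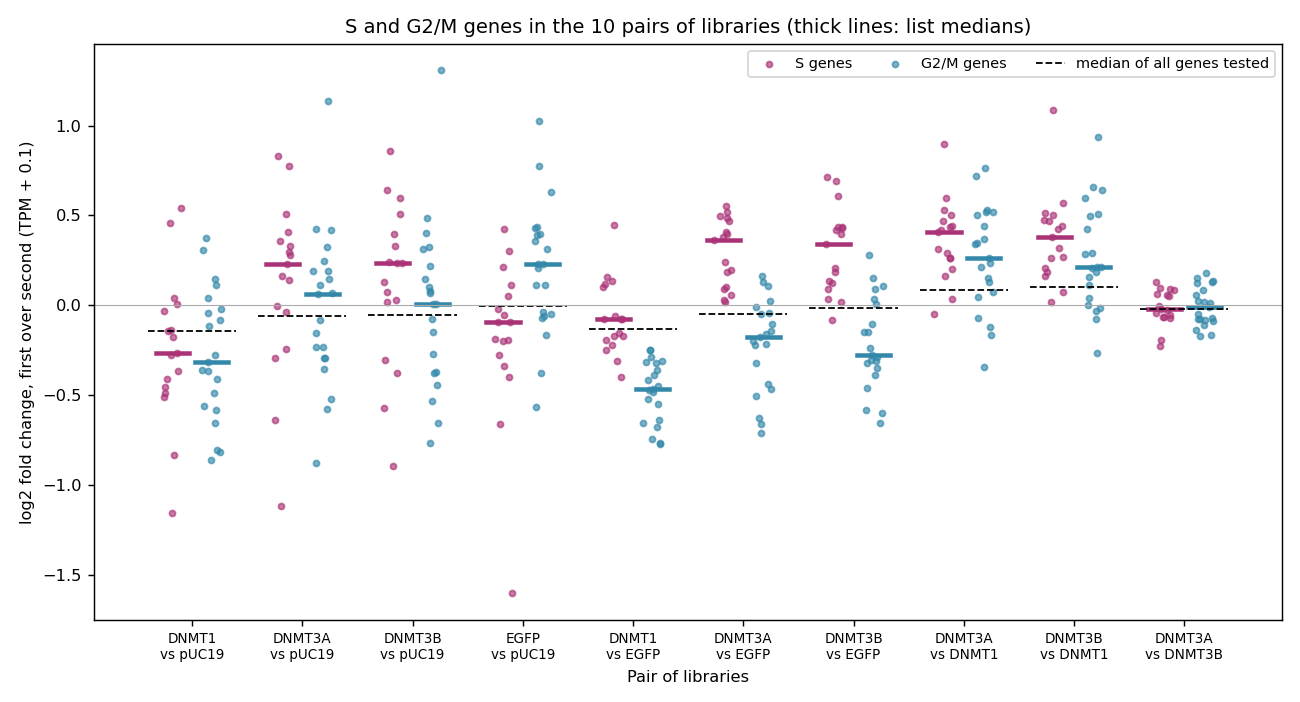
Log2 fold change of TPM + 0.1 (y axis, first library over second) of the 17 S genes and 21 G2/M genes in the 10 pairs of libraries (x axis), with thick lines for list medians and dashed lines for the median of all genes tested. With DNMT3A and DNMT3B against EGFP the S median lies above (0.36 and 0.34) and the G2/M median below (-0.17 and -0.28) the median of all genes.

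An edgeR quasi-likelihood fit of DNMT3A and DNMT3B against DNMT1 and EGFP tested 15332 genes at an adjusted p under 0.05. It called 6.9% of genes higher and 4.15% lower with DNMT3A and DNMT3B. Of the 38 members it called 3 higher, CCNE2, CDC6 and PCNA, all S genes, and 1 lower, TOP2A, a G2/M gene. The count of 4 is near the background. The libraries within each arm were made with different constructs and are not replicates of a condition.

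CDC6, which loads the MCM helicase together with CDT1, had 77.1 TPM with DNMT1, 117 with DNMT3A, 109 with DNMT3B, 81.3 with EGFP and 92.9 in pUC19. PCNA had 281 TPM with DNMT1, 407 with DNMT3A, 418 with DNMT3B, 313 with EGFP and 318 in pUC19. In both genes the control lay between the 2 arms. TOP2A, the topoisomerase that untangles sister chromatids, had 187 TPM with DNMT1, 147 with DNMT3A, 156 with DNMT3B, 234 with EGFP and 173 in pUC19, again with the control between the arms but in the opposite order.

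The log2 differences of the fit were 0.74 for CCNE2 (adjusted p 0.029), 0.46 for CDC6 (0.0385), 0.42 for PCNA (0.0435) and -0.52 for TOP2A (0.0282). TYMS (0.45, adjusted p 0.0597), RRM1 (0.38, 0.0602) and MCM5 (0.38, 0.0619) lay just outside the threshold. The median was 0.27 over the S genes and -0.05 over the G2/M genes, beside -0.01 over all genes. The calls moved with those over all genes when a library was left out. Without DNMT3A or DNMT3B no member was called, beside 0.114% and 0.336% of all genes, and without DNMT1 or EGFP the numbers were 15 and 16, beside 22.5% and 24.7%, where the lone library of an arm is assumed to vary like the other arm. TOP2A was lower, and CCNE2, CDC6 and PCNA were higher, in all 4 of these fits. For each of these genes both libraries of an arm lay beyond both of the other, so leaving out a library could not turn the direction.

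The surrounding network was followed in 164 further cell cycle genes in 10 lists. By the 2-fold rule, 1 of them was called higher and 3 lower with the DNMT1 fusion, 9 and 4 with DNMT3A, 8 and 3 with DNMT3B, and 5 and 4 with EGFP, which involved 15 genes. The percentages of all genes called are those given above for the members. CDKN1A, E2F5 and KNTC1 were called in all 4 fusion libraries. These comparisons share the pUC19 library, and the share of all genes called in all 4 was not counted.

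Among the 8 CDK inhibitors, CDKN1A, which encodes p21 and is a target of p53, had 20.1 TPM in pUC19 and 43.8, 53.7, 65 and 42.7 TPM with DNMT1, DNMT3A, DNMT3B and EGFP. It rose in each fusion library, by log2 1.12, 1.41, 1.69 and 1.08. CDKN2D, an inhibitor of CDK4 and CDK6, was called higher with DNMT3A (log2 1.28) and DNMT3B (1.42), and CDKN2B, of the same family, with EGFP (1.05). The CDKN2B call was near the 2-fold limit and at a low level, with 4.9 TPM for EGFP and 2.3 TPM (149 reads) in pUC19.

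Of the 19 E2F, pocket protein and MuvB regulators, E2F5, a repressor that binds pocket proteins, had 33.1 TPM in pUC19 and 11.5 to 14.9 TPM in the fusion libraries, with log2 values of -1.15, -1.51, -1.35 and -1.36. The activator E2F2 had 31.7 TPM in pUC19 and 40.6, 103, 94.6 and 69.2 TPM with DNMT1, DNMT3A, DNMT3B and EGFP, and the repressor E2F6 had 28.2 TPM and 35.5, 89.8, 77.3 and 67.5 TPM. Both were called higher with DNMT3A, DNMT3B and EGFP and not with DNMT1. The median log2 fold change of this list against pUC19 lay between -0.16 and 0.08.

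Of the 14 G1 cyclins, kinases and phosphatases, CDC25A, a phosphatase that activates CDKs, and PKMYT1, a kinase that inhibits CDK1, were called higher with DNMT3A and DNMT3B (log2 1.21 to 1.32), and CDK6 lower with DNMT3A (-1.41). FEN1, the flap nuclease of lagging strand synthesis, was the only member called among 29 replication fork genes (log2 1.12 with DNMT3A). Among 10 genes of nucleotide supply, RRM2B, the p53-induced reductase subunit, was called lower with DNMT3A (-1.15) and EGFP (-1.06). None of the 11 genes of MCM loading and origin licensing was called against pUC19 in any fusion by this exact test.

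In the mitotic lists, KNTC1, a subunit of the RZZ complex of the kinetochore, had 32.7 TPM in pUC19 and 12.3 to 15.2 TPM in the fusion libraries. It was the only one of the 18 kinetochore and checkpoint genes that was called, and the only one of the 164 called in the edgeR fit of the 4 fusions against pUC19 (log2 -1.17, adjusted p 0.0436). That fit called 0.737% of all genes, so 1 of 164 was near the background. KIF15, a spindle motor that works beside KIF11, had 28.3 TPM in pUC19 and 7.35, 16.9, 13.3 and 9.48 TPM with DNMT1, DNMT3A, DNMT3B and EGFP, and was called lower in all but DNMT3A. CDCA5, the cohesion factor sororin, was called higher with DNMT3A, DNMT3B and EGFP (log2 1.15 to 1.27), and FZR1, which activates the anaphase-promoting complex in G1, with DNMT3A (1.17) and DNMT3B (1.15).

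In the edgeR fit of DNMT3A and DNMT3B against DNMT1 and EGFP, 21 of the 164 genes were called higher and 5 lower, beside 6.9% and 4.15% of all genes. They included 6 replication fork genes higher and 1 lower of 29, and 3 of 11 genes of MCM loading and origin licensing, all higher. Of the genes named above, CDKN2D (log2 0.89), E2F2 (0.81), CDC25A (0.56), PKMYT1 (0.74), FZR1 (0.75), FEN1 (0.89) and KIF15 (0.80) were higher, and CDK6 (-0.93) was lower, in that fit. The median was 0.20 over the replication fork genes, 0.09 over MCM loading and origin licensing and 0.04 over nucleotide supply. It was 0.12 over the kinetochore and spindle checkpoint genes and 0.08 over condensin, cohesin and separation. Over the 25 genes of mitotic motors, spindle and cytokinesis it was 0.04, and over the anaphase-promoting complex 0.00 (0.0014). The E2F list had 0.06, the G1 list 0.05 and the CDK inhibitors -0.08, beside -0.01 over all genes.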

How the data were processed

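RNA of HEK293T cells, BFP-positive by the labels, was sequenced by the authors in 5 libraries, 1 per group. According to the study's methods, filtered reads were aligned with tmap to RefSeq transcripts of hg19 (GRCh37) and uniquely mapped reads were used. The tmap version is not given in the sources used here. The deposited read counts are whole numbers without normalization, and the deposited TPM values are counts divided by gene length and scaled per library by the authors. The deposited tables also give coverage in percent per gene, which was only inspected. Counting of unique reads lowers genes with near-identical copies, and strand was not stated, so overlapping antisense transcripts cannot be told apart.

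Genes absent from a table were set to 0. Each pair of libraries was compared with an exact conditional binomial test (2 times the smaller tail, given both totals), with Benjamini-Hochberg adjustment over all genes that had any read in the pair. A pseudocount of 0.1 TPM was used for fold changes, which understates those of low genes. The 2 model fits used edgeR 4.0.16 (R 4.3.3) on the counts, with TMM, filterByExpr and the quasi-likelihood F-test. DESeq2 1.42.0 was an alternative. GC content and length trends were fitted by loess (span 0.3). For the pairs, the trend of the log ratio was fitted on genes with a mean of at least 1 TPM in the pair. The model fits used a like limit on counts. A GC value was known for 89.25% of genes, which included all 38 members, and the trend with length alone did not need it. Positions are from GENCODE 44 on GRCh37.

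The members and lists were chosen with earlier results of these data known. Values in all libraries were given for members called in any test and, in each role, for the member highest in pUC19 and the member of largest difference from pUC19. In the further lists, at most 3 genes per list and direction were named, those called against pUC19 in most fusions first. The scripts were tested on simulated counts.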

Additional observations from a re-analysis of the deposited data

Results flagged for a closer look

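Between fusions, the edgeR quasi-likelihood fit of DNMT3A and DNMT3B against DNMT1 and EGFP called 6.9% of all genes higher and 4.15% lower. Beside this, 4 of the 38 members were called, a count near the background: CCNE2 (log2 0.74), CDC6 (0.458), PCNA (0.421) and TOP2A (-0.522). Each was outside the threshold when the DNMT3A or the DNMT3B library was left out. CCNE2 also differed by the exact test between the DNMT3B and DNMT1 fusion libraries (log2 1.087). No group had enough libraries to look for a library far from the others of its group.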

How the results depend on the processing

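With a limit of 1.5-fold, members called against pUC19 were 6 (DNMT1), 6 (DNMT3A), 7 (DNMT3B) and 5 (EGFP), those against EGFP 6 (DNMT1), 3 (DNMT3A) and 5 (DNMT3B), and those against DNMT1 4 (DNMT3A) and 5 (DNMT3B). Over all genes the last 5 pairs gave 6.49%, 12.9%, 11.6%, 13.7% and 13.4%. With an assumed coefficient of variation of 0.2 they were 0 in all pairs, which ended the calls of CCNE1, MKI67 and CCNE2, and over all genes the calls against pUC19 went from 982, 1776, 1661 and 1090 to 39, 136, 117 and 59. Removing the length trend, or the GC and length trend, left 1 member for EGFP against pUC19 and 0 for DNMT3B against DNMT1, and TMM scaling also left 0 for the latter. The other settings for the pairs (a pseudocount of 1 TPM, the DNMT rows left out, a minimum of 1 TPM, an adjusted p up to 0.05 and equal depth by thinning) kept every count of members within 1.5 times. For the 4 fusions against pUC19, DESeq2 called 3 members (977 genes against 118 by edgeR), and leaving out each fusion in turn gave 0 to 1. In the fit with DNMT3A and DNMT3B in 1 arm, DESeq2 called 7 members, the fit without a filter 2 and the fit with a GC and length offset 7 (16.5%, 5.43% and 15.1% of all genes), and leaving out each fusion gave 0 to 16. CCNE1, MKI67, CCNE2, CDC6, PCNA and TOP2A, in the comparisons where they were called or followed, kept their direction in 150 alternatives (124 kept their side of the threshold, 22 lost it and 4 passed it). Many of these alternatives could not turn a direction. In the pairs, the 1.5-fold limit, the adjusted p up to 0.05, the minimum of 1 TPM and the assumed variation reuse the main fold. A pseudocount of 1 TPM cannot change its sign. Against pUC19, TMM turned the direction of MCM2, CDK1, AURKA, KIF11 and TPX2 with DNMT1 and of MCM3 with DNMT3A. Of the 20 list medians, 2 changed sign in 6 alternatives: S for DNMT1 against EGFP, and G2/M for DNMT3A against DNMT3B. No paired analysis was possible because each group had 1 library. With 1 library per group, the spread between transfections is unknown, and no difference can be set against it.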
